A study of Bubalus bubalis with 2 samples.

Results

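The genes described here are 10 genes of the actin cytoskeleton and the contractile machinery, measured as cell-free RNA in saliva. They comprise the actins ACTA1, ACTA2, ACTB and ACTG1, the actin-binding proteins TAGLN, CNN1, CNN2, CALD1 and TPM2, and the myosin light chain MYL9. Their rows were picked by gene symbol from the 20905 rows of the deposited table, and all 10 were found and lay above 0 in both libraries. The genes were chosen on account of their FPKM values in these libraries (fragments scaled to transcript length and library size), so the ratios between the stages describe the choice and are not tested. The samples were saliva of Murrah buffalo, a dairy breed of water buffalo, with 1 library labelled estrus, the receptive stage of the cycle, and 1 labelled diestrus, the luteal stage. The labels record no treatment and do not give age, number of animals or any pooling. With 1 library per stage there is no replicate check on any difference, and in cell-free RNA the number of contributing cells and the RNA per cell cannot be told apart.

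Actin is the subunit of the thin filament. Mammals make cytoplasmic beta actin (ACTB) and gamma actin (ACTG1) in nearly all cells, while ACTA2 and ACTG2 are the actins of smooth muscle, ACTA1 that of skeletal muscle and ACTC1 that of the heart. In smooth muscle, myofibroblasts and myoepithelial cells, which squeeze secretory units of glands, filaments of ACTA2 are bound by transgelin, calponin, caldesmon and tropomyosin, and myosin pulls on them once its regulatory light chain is phosphorylated. Many of these genes respond to serum response factor and its coactivators of the myocardin family.

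Sequencing depth differed between the libraries. The value of a single fragment was estimated from short loci with few fragments. On a common step, 40 of 1075 short loci in estrus and 106 of 1237 in diestrus held 1 to 3 fragments, against a median of 2 loci on other steps. By this estimate each fragment on an effective kb counted 0.233 FPKM (estrus) and 1.25 FPKM (diestrus). The estrus library was thus estimated as 5.36 times deeper on the authors' scale, and 3 fragments per kb corresponded to 0.699 FPKM (estrus) and 3.75 FPKM (diestrus). All 20 values of the genes described lay above these levels. The lists of related genes below count genes from a mean of 1 FPKM, so some of their values lay under these levels. In diestrus these included KCNJ8 at 3.42, CDH1 at 3.28, TWF1 at 2.74 and TTN at 2.41 FPKM, and calls on such genes rest on few fragments. The summed FPKM was 1016100 for estrus but 521566 for diestrus. Ratios are given on the deposited scale unless a rescaling is named. The genes described held 2.44% of the estrus sum and 2.07% of the diestrus sum. Among 8269 genes with a mean of at least 1 FPKM the median log2 ratio was -0.016.

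**Figure D1:**
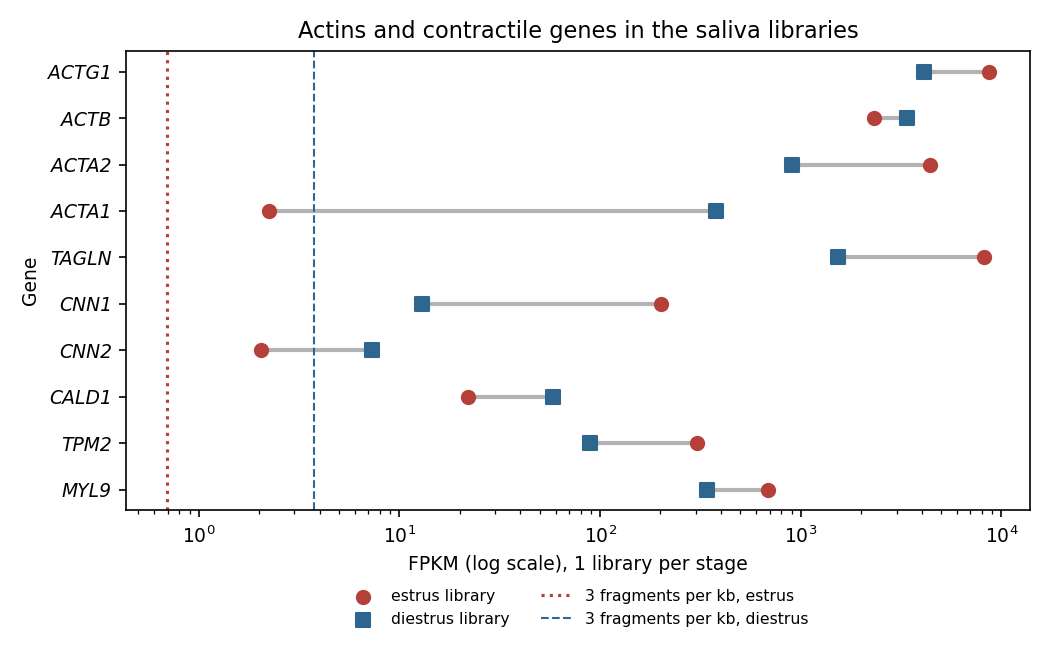
FPKM (log axis) of the 10 genes in the estrus library (circles) and the diestrus library (squares), with vertical lines at 3 fragments per kb in each library. TAGLN, ACTA2, ACTG1, CNN1, TPM2 and MYL9 lay to the right in estrus, whereas ACTB, CALD1, CNN2 and ACTA1 lay to the right in diestrus, with the longest line for ACTA1.

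Genes of the contractile machinery divided between the libraries. ACTA2, TAGLN, CNN1 and TPM2 had higher values in estrus, CALD1 had a lower value, MYL9 lay at the 2-fold limit, and ACTA1 stood far apart on the diestrus side. On the scale log2((estrus FPKM + 1)/(diestrus FPKM + 1)), which shrinks the ratios of weakly expressed genes, 5 of the 10 genes were at least 2-fold higher in estrus, namely CNN1, TAGLN, ACTA2, TPM2 and ACTG1. Another 3 were at least 2-fold lower, namely ACTA1, CNN2 and CALD1, and ACTB and MYL9 lay between. Of all 8269 genes with a mean of at least 1 FPKM, 31.3% were higher by that measure and 33.1% were lower, and since the choice of genes rested on these ratios nothing is read from the comparison. The median log2 ratio of the 10 genes was 1.03. Genes of high level leaned towards estrus on the deposited scale. Of the 805 genes with a mean of at least 100 FPKM, a limit chosen after the values were seen, 43.7% were at least 2-fold higher, 17.3% were at least 2-fold lower and the median log2 ratio was 0.77. That lean depends on the scaling, since making the FPKM sums equal shifts such log2 ratios by about -0.96.

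Gamma actin was the most abundant of the 10 genes in both libraries. ACTG1 (chromosome 19, 51868429 to 51871276, here and below as the table gives it, counting from 1, on a build that is not given) stood at 8639 FPKM (estrus) and 4122 FPKM (diestrus). It ranked 14th of all genes in estrus and 12th in diestrus, so its place among transcripts was much the same although its log2 ratio was 1.07. ACTB (chromosome 25, 39343633 to 39347044), often used as a reference gene, stood at 2329 FPKM (estrus) and 3366 FPKM (diestrus), and its log2 ratio was -0.53. The cytoplasmic actins thus differed from each other in direction, as they did under every scaling of the libraries tried. Gamma actin was 3.71 times as abundant as beta actin in the estrus library and 1.22 times as abundant in the diestrus library, a ratio that no rescaling of the libraries can alter.

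ACTA2, the alpha actin of smooth muscle, was more abundant relative to both cytoplasmic actins in estrus. It stood at 4394 FPKM (estrus) and 902 FPKM (diestrus), and its log2 ratio was 2.28 or 4.86-fold. Set against ACTB within each library, ACTA2 was 1.89 times the level of beta actin in estrus and 0.268 times in diestrus. Against ACTG1 the difference was smaller, at 0.509 times the level of gamma actin in estrus and 0.219 times in diestrus. The locus given for ACTA2 (chromosome 26, 10662362 to 10748014) is the same as that of FAS, a death receptor gene, which had its own values of 1.86 FPKM (estrus) and 25.5 FPKM (diestrus). The rows of ACTA2 and FAS thus went in opposite directions, and how reads were divided between them was not tested.

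ACTA1, the actin of skeletal muscle, had the largest ratio of the 10 genes. It stood at 2.25 FPKM (estrus) and 378 FPKM (diestrus), and its log2 ratio was -6.87 or 117-fold lower in estrus. It ranked 209th of all genes in diestrus and 5890th in estrus. The estrus value of ACTA1 (chromosome 28, 419154 to 421910) corresponded to 9.66 fragments per kb, so it was low but not at the detection limit. For an effective length of 1 kb the log2 of the FPKM ratio, -7.39, had a 95% exact binomial interval from -8.42 to -6.45. Intervals of this kind cover counting error alone, not the spread between animals, and reads without molecular identifiers are not independent molecules.

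Few other genes of striated muscle were detected. Of 35 such genes, which included the myosin heavy chains, troponins and myogenic factors, 27 were listed at 0 in both libraries, among them MYH1, MYH2, MYOD1 and MYOG. Only 3 had a mean of at least 1 FPKM, namely ACTC1, TTN and TCAP. ACTC1, the cardiac actin, stood at 88.1 FPKM (estrus) and 44.2 FPKM (diestrus). TTN, the giant sarcomere protein titin, stood at 0.240 FPKM (estrus) and 2.41 FPKM (diestrus). TCAP, a titin-binding protein, stood at 4.67 FPKM (estrus) and 0.243 FPKM (diestrus). Outside ACTA1, the summed level of the 35 genes was 93.7 FPKM (estrus) and 49.4 FPKM (diestrus), most of it from ACTC1. A listed 0 is not read as absence, because 10334 of the 20905 rows were at 0 in both libraries and a 0 in such a table can be a failed estimate.

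The makeup of the actin transcripts was compared within each library, where library scaling cancels. Over the 4 actins above plus ACTC1 and ACTG2, the summed level was 21847 FPKM (estrus) and 9160.1 FPKM (diestrus). The smooth-muscle actins ACTA2 and ACTG2 together held 49.4% of that sum in estrus and 13.6% in diestrus. The cytoplasmic actins held 50.2% in estrus and 81.7% in diestrus. The share of ACTG1 was similar, at 39.5% in estrus and 45.0% in diestrus. That of ACTB was 10.7% in estrus and 36.7% in diestrus. ACTA2 held 20.1% in estrus and 9.85% in diestrus, and ACTA1 held 0.0103% in estrus and 4.13% in diestrus. The actins have very similar coding sequences, so reads can be assigned to the wrong actin or lost, and pseudogene copies can take others. The part of this in the shares was not tested.

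**Figure D2:**
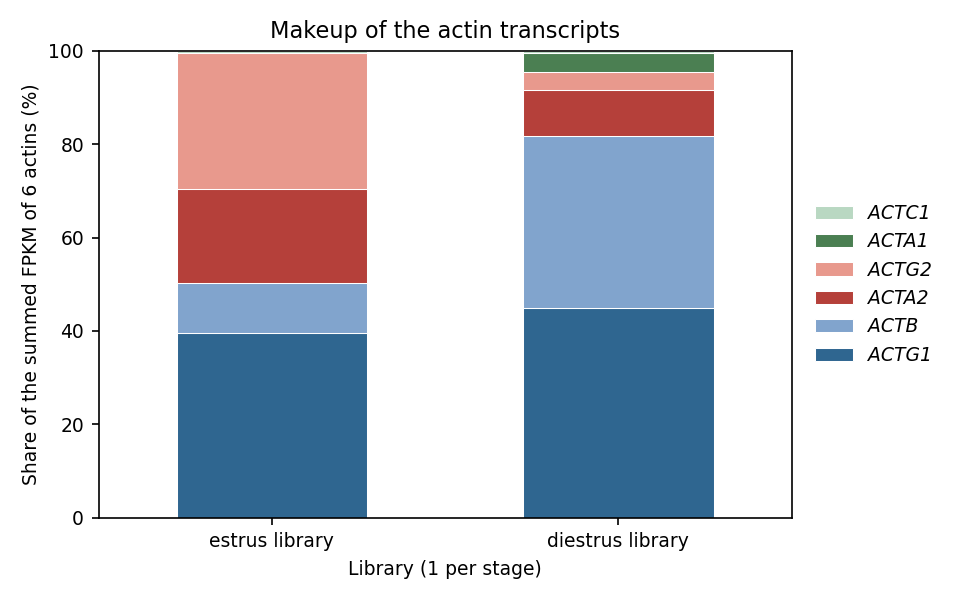
Share of the summed FPKM of 6 actins held by each actin (%, stacked bars) in the estrus library and the diestrus library, 1 library per stage. ACTA2 and ACTG2 fill 49.4% of the estrus bar and 13.6% of the diestrus bar, and ACTB fills 36.7% of the diestrus bar and 10.7% of the estrus bar.

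Transgelin (TAGLN, chromosome 15, 28318411 to 28323666), a small actin-bundling protein used as an early marker of smooth muscle, was the second gene of the group in estrus. It stood at 8173 FPKM (estrus) and 1536 FPKM (diestrus), and its log2 ratio was 2.41 or 5.32-fold. It ranked 16th of all genes in estrus and 45th in diestrus. TAGLN and ACTA2 kept nearly the same proportion, with TAGLN at 1.86 times the level of ACTA2 in estrus and 1.70 times in diestrus. TAGLN2, the transgelin of non-muscle cells, was closer between the libraries, and TAGLN was 3.22 times its level in estrus and 1.30 times in diestrus.

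The calponins differed in direction. CNN1 (chromosome 7, 17106394 to 17114222), the calponin of differentiated smooth muscle that inhibits the myosin ATPase, stood at 201 FPKM (estrus) and 13.0 FPKM (diestrus). Its log2 ratio of 3.85 was the highest of the 10 genes. CNN2 (chromosome 7, 45159981 to 45162941), a calponin of non-muscle as well as smooth-muscle cells, was low in both libraries, at 2.03 FPKM (estrus) and 7.30 FPKM (diestrus), and its log2 ratio was -1.45. Within the estrus library CNN1 was 98.7 times the level of CNN2, and within the diestrus library it was 1.78 times. Low counts limited the precision of both ratios, as for ACTA1. The diestrus value of CNN1 corresponded to 10.4 fragments per kb, and for 1 kb of effective length the log2 of its FPKM ratio, 3.95, had an interval from 3.12 to 5.07. For CNN2, with 8.73 fragments per kb in estrus and 5.84 in diestrus, the log2 of the FPKM ratio was -1.84 with an interval from -3.49 to -0.067, an interval that reached almost to equality. With a pseudocount of 10 FPKM the log2 ratio of CNN2 was -0.52, under the 2-fold limit.

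Caldesmon and tropomyosin, which lie along the thin filament and control access of myosin, also went in opposite directions. TPM2 (chromosome 8, 60267452 to 60274815), the beta tropomyosin of smooth and skeletal muscle, stood at 303 FPKM (estrus) and 89.0 FPKM (diestrus), and its log2 ratio was 1.76. CALD1 (chromosome 4, 99475015 to 99580189), which the table describes as the non-muscle caldesmon, stood at 22.0 FPKM (estrus) and 58.0 FPKM (diestrus), and its log2 ratio was -1.36. The FPKM ratio of CALD1 was -1.40 on the log2 scale with an interval from -1.90 to -0.84 for 1 kb of effective length. How far the smooth-muscle and non-muscle forms of CALD1 each contributed was not tested, since the table gives 1 value per gene.

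MYL9 (chromosome 13, 66306260 to 66314230), the regulatory light chain of smooth-muscle myosin, lay at the 2-fold limit. It stood at 685 FPKM (estrus) and 343 FPKM (diestrus), and its log2 ratio was 0.997. Its level relative to ACTG1 was nearly equal in the libraries, at 0.0793 in estrus and 0.0831 in diestrus. The essential light chain MYL6 had a larger ratio, so that MYL9 was 4.22 times the level of MYL6 in estrus and 17.6 times in diestrus.

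The order of levels within the group differed between the libraries. In estrus the order from the top was ACTG1, TAGLN, ACTA2, ACTB, MYL9, TPM2, CNN1, CALD1, ACTA1 and CNN2. In diestrus it was ACTG1, ACTB, TAGLN, ACTA2, ACTA1, MYL9, TPM2, CALD1, CNN1 and CNN2. ACTB thus stood below TAGLN and ACTA2 in estrus and above them in diestrus. In the estrus library ACTA1 and CNN2 had 9.66 and 8.73 fragments per kb, a gap within counting error, and no spread over animals is available for any neighbours in either order.

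In the authors' deposited table none of the 10 genes carried the authors' call of significance. CALD1 and CNN2 had a p-value of 1 in the authors' deposited table, and the p-values of the other 8 genes ran from 0.183 for ACTG1 to 0.573 for ACTB, all with a q-value of 0.797. Those values rest on 1 library per stage and were copied, not recomputed. For CALD1 and CNN2 the deposited test statistic was 0, so their p-value can mark a gene that was not tested.

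Rescaling the libraries moved all 10 genes together, and it decided the call of the genes near 2-fold. When the libraries were scaled to equal upper quartiles, the median over all genes with a mean of at least 1 FPKM went from -0.016 to -0.31, and when the FPKM sums were made equal it went to -1.03. ACTG1 then had log2 ratios of 0.79 and 0.11, and MYL9 of 0.72 and 0.037. With equal medians of the genes above 0 in both libraries ACTG1 stood at 0.98, also under the limit. TPM2 stayed above 2-fold with equal upper quartiles at 1.48 but not with equal sums at 0.80. CNN1, TAGLN and ACTA2 stayed above 2-fold under every scaling tried, with lowest log2 ratios of 2.94, 1.45 and 1.32. ACTB passed the limit towards diestrus with equal sums at -1.49, and at -1.09 when the 4 extreme rows OPRM1, PPARGC1A, TBX15 and CSPG5 were left out of the sums. ACTA1 went to -7.83 with equal sums. No gene of the 10 changed sign under the scalings tried. The other pseudocounts and filters could not have changed a sign, because the same amount is added to both values and a filter leaves the ratio as it is.

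**Figure D3:**
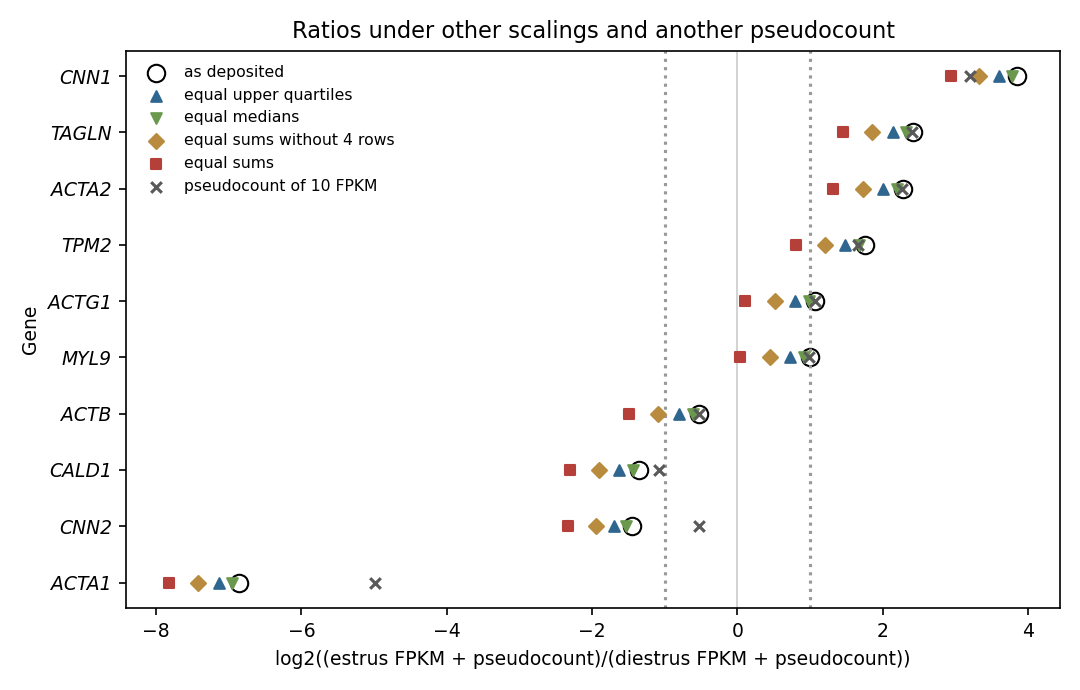
Log2 ratio of estrus over diestrus for each of the 10 genes as deposited (open circles), after 4 rescalings of the libraries and with a pseudocount of 10 FPKM, with dotted lines at 2-fold (the 4 rows left out of 1 scaling are OPRM1, PPARGC1A, TBX15 and CSPG5). CNN1, TAGLN and ACTA2 stay to the right of the upper line throughout, ACTG1, MYL9 and TPM2 cross or touch it, and ACTA1 stays at or below -4.99.

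Close relatives of the genes described were higher in estrus or lay within 2-fold on the deposited scale. Of 12 paralogs found in the deposited table, 10 had a mean of at least 1 FPKM, and 6 of those were at least 2-fold higher, 0 were lower and 4 lay between, with a median log2 ratio of 1.11. For this list and those below, the shares of all 8269 counted genes were 31.3% higher and 33.1% lower. Among genes with a mean of at least 100 FPKM they were 43.7% and 17.3%. TAGLN3, 1 of the 6, stood at 28.2 FPKM in estrus and was listed at 0 in diestrus. ACTG2, the gamma actin of enteric smooth muscle (chromosome 11, 10717554 to 10732398), stood at 6394 FPKM (estrus) and 347 FPKM (diestrus), and its log2 ratio was 4.20. ACTG2 was thus 1.46 times the level of ACTA2 in estrus and 0.385 times in diestrus. TAGLN2 stood at 2536 FPKM (estrus) and 1185 FPKM (diestrus). TPM4, a tropomyosin of non-muscle cells, stood at 777 FPKM (estrus) and 357 FPKM (diestrus), and MYL12A, a regulatory light chain of non-muscle myosin, at 189 against 78.5 FPKM. TAGLN2, TPM4 and MYL12A had log2 ratios from 1.10 to 1.26, near the limit, and with equal upper quartiles only 3 paralogs were at least 2-fold higher and 2 were lower. On that scaling 27.0% of all counted genes were higher and 38.0% were lower. The 4 paralogs within 2-fold were ACTC1 and, with higher values in diestrus, TPM3, MYL12B and CNN3. TPM3, another tropomyosin, stood at 39.6 against 77.9 FPKM (log2 ratio -0.96). MYL12B, the sister gene of MYL12A, stood at 47.9 against 86.9 FPKM (-0.85). CNN3, the remaining calponin, stood at 26.6 against 39.3 FPKM (-0.55). TPM1 and MYL6B were listed at 0 in both libraries.

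Genes on a list of the smooth-muscle contractile apparatus were uneven. Of 14 found, 10 had a mean of at least 1 FPKM, of which 5 were at least 2-fold higher in estrus, 1 was lower and 4 lay between, with a median log2 ratio of 1.14. ACTG2 and MYL6 are also among the paralogs, and without these 2 genes 3 of 8 were higher, 1 was lower, 4 lay between and the median was 0.27. SMTN (smoothelin), a protein of contractile smooth muscle, stood at 76.3 FPKM (estrus) and 4.65 FPKM (diestrus). MYL6 stood at 162 FPKM (estrus) and 19.5 FPKM (diestrus), and CSRP1, a LIM protein of smooth muscle, at 146 against 36.7 FPKM. PPP1R14A, an inhibitor of myosin phosphatase, stood at 37.4 FPKM in estrus and was listed at 0 in diestrus. The gene lower in estrus was SYNPO2, an actin-bundling protein, at 6.45 against 24.7 FPKM. Without the filter on low values the median of the list was 0.11, and MYH11, the smooth-muscle myosin heavy chain, was listed at 0 in both libraries, as was PPP1R12A.

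Genes of stress fibres and of actin assembly showed no common direction. Of 19 stress-fibre and focal-adhesion genes with a mean of at least 1 FPKM, 5 were at least 2-fold higher, 7 were lower and 7 lay between, with a median log2 ratio of -0.067 that turned to 0.62 among genes with a mean of at least 10 FPKM. The actin crosslinker FLNA (filamin A) stood at 764 FPKM (estrus) and 116 FPKM (diestrus), and ZYX (zyxin), a focal-adhesion protein, at 777 against 209 FPKM. VCL (vinculin), which ties actin to adhesions, was close to equal at 322 against 284 FPKM, and PDLIM1 stood at 337 against 202 FPKM. Of 24 actin-assembly genes 5 were higher, 4 were lower and 15 lay between, with a median of -0.022. The 4 lower genes were ARPC1B, ARPC4, ACTR3 and TWF1. The monomer-binding protein TMSB10 (thymosin beta 10) stood at 4864 FPKM (estrus) and 773 FPKM (diestrus), and the severing protein DSTN (destrin) at 779 against 192 FPKM. PFN1 (profilin), at 2303 against 1359 FPKM, and CFL1 (cofilin), at 1707 against 2366 FPKM, lay within 2-fold.

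**Figure D4:**
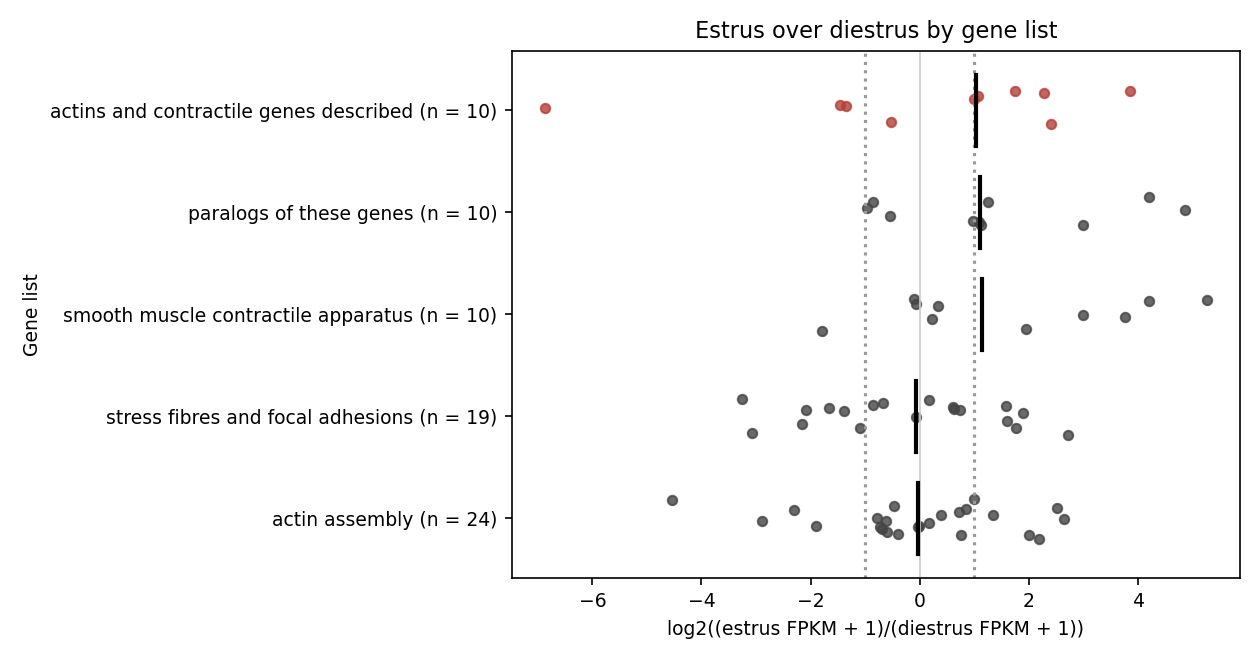
Log2 ratio of estrus over diestrus for each gene (points) of the group described and of the lists of related genes, counting genes with a mean of at least 1 FPKM, with black bars at the medians and dotted lines at 2-fold. The medians of the group, its paralogs and the smooth-muscle apparatus lie between 1.03 and 1.14 (ACTG2 and MYL6 are in both of these lists, and the apparatus without them has a median of 0.27), and those of stress fibres and actin assembly lie at -0.067 and -0.022.

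Markers of the cells that could supply these transcripts differed between the libraries as well. Of 9 epithelial marker genes found, 7 had a mean of at least 1 FPKM and all 7 were at least 2-fold lower in the estrus library, their summed level being 7.26 FPKM (estrus) and 1143 FPKM (diestrus). KRT4 was at 0 in both libraries, and KRT8, KRT18, EPCAM and CDH1 were listed at 0 in estrus. Of 6 myoepithelial and basal-cell markers found, KRT5, KRT14 and KRT17 were lower in estrus, ACTG2 was higher, and TP63 and OXTR were at 0 in both. The summed level of that list was 6401 FPKM (estrus) and 1851 FPKM (diestrus), nearly all of the estrus sum from ACTG2. KRT5 stood at 6.80 FPKM (estrus) and 164 FPKM (diestrus), and KRT14 at 0.124 against 223 FPKM. The part of these cell types in the ratios of the contractile genes was not tested.

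Markers of mesenchymal cells were present in both libraries. All 10 fibroblast markers were above 0 in both, with summed levels of 6560 FPKM (estrus) and 5961 FPKM (diestrus), and 3 were at least 2-fold higher, 1 was lower and 6 lay between. The 1 lower marker was PDGFRA, at 0.782 FPKM (estrus) and 26.8 FPKM (diestrus), a log2 ratio of -3.96. DCN (decorin), a matrix proteoglycan, was among the higher markers at 1274 FPKM (estrus) and 436 FPKM (diestrus). COL1A1, a chain of type I collagen, stood at 1630.4 against 3029 FPKM, within 2-fold. Of the 8 smooth-muscle markers, 7 of which are also on the list of the contractile apparatus, 2 were higher, 1 was lower and 3 lay between. Their sum was 6536 FPKM (estrus) and 432 FPKM (diestrus), most of it from ACTG2, and the other 7 summed to 141 FPKM (estrus) and 84.3 FPKM (diestrus). Those markers divided, since ACTG2 and SMTN were higher in estrus while SYNPO2 was lower. LMOD1, at 28.1 against 29.4 FPKM, KCNMB1, at 25.8 against 20.3 FPKM, and DES (desmin), at 4.76 against 5.17 FPKM, were close to equal, and MYH11 and MYOCD were at 0 in both. Pericyte markers summed to 99.4 FPKM (estrus) and 48.4 FPKM (diestrus), with most of the estrus sum from CSPG4. Of 5 with a mean of at least 1 FPKM, 2 were at least 2-fold higher, 1 was lower and 2 lay between. CSPG4, at 64.5 against 8.68 FPKM, and NOTCH3, at 2.49 FPKM against a listed 0, were higher. KCNJ8, listed at 0 in estrus and at 3.42 FPKM in diestrus, was lower. PDGFRB stood at 31.1 against 34.9 FPKM, and RGS5 and HIGD1B were at 0 in both. Leukocyte markers summed to 17.0 FPKM (estrus) and 4.37 FPKM (diestrus) with PTPRC and 6 others at 0 in both, and endothelial markers summed to 0.0400 and 0.155 FPKM with PECAM1 and 4 others at 0 in both. The part of these cell types in the ratios of the contractile genes was not tested either.

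Genes that lay closest to TAGLN in the level of both libraries were sought by Euclidean distance on log2(FPKM + 1), which rests on 2 libraries and says nothing of shared function. The nearest were RPL29, a ribosomal protein, at 7823 FPKM (estrus) and 2404 FPKM (diestrus) (distance 0.65), CST6, a cystatin, at 4786 against 1471 FPKM (0.77), and TMSB10 (1.24). TIMP2 (1.39) and S100A4 (1.39) followed. For ACTA1 the nearest were TRPV3, an ion channel, at 1.79 against 284 FPKM (0.47), SOCS3, a suppressor of cytokine signalling, at 3.60 against 431 FPKM (0.54), and AKR7A2, at 3.61 against 267 FPKM (0.71). RSPH4A (0.80) and THAP12 (1.04) followed. No gene of the striated-muscle list was among these 5, which followed from its levels, since its highest diestrus value was 44.2 FPKM (ACTC1).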

How the data were processed

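Per the labels' protocols, library preparation used version 2 of the TruSeq RNA kit of Illumina. The submitters' processing notes name Cufflinks and Cuffdiff, along with TopHat and Bowtie, all without versions. A genome build is not given in the sources used here. According to the table itself, per the file headers, the authors deposited FPKM values for each gene and library. Their log2 fold changes, p-values, q-values and test statistics (a score) were also deposited, and p-values and q-values were copied, not recomputed.

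Ratios were log2((estrus FPKM + 1)/(diestrus FPKM + 1)), and a gene was counted at a mean of at least 1 FPKM and called apart at 2-fold. With 1 library per stage, no test was made. Depth was estimated as the FPKM step at which the number of loci of 400 to 3000 bp holding 1 to 3 fragments within 0.5% was highest (40 of 1075 loci in estrus and 106 of 1237 in diestrus, against a median of 2 on other steps), taking 184 and 186 bp off each span. The method was checked on simulated libraries built on the same assumptions, which does not test whether those assumptions hold in these data. Table starts were read as counting from 0, because spans of 124 of 134 olfactory receptor loci were then multiples of 3. Intervals are Clopper-Pearson. The genes and lists were chosen with earlier results of these data known. Named were up to 4 counted genes of highest mean from each list and the 5 genes nearest to TAGLN and to ACTA1. Some of the genes that a count of 5 or fewer singles out were also named, but not all. Other names were chosen after their values were seen. Alternatives changed the pseudocount, the filter, the fold and the library scaling. Python 3.11.15, numpy 2.4.6 and scipy 1.17.1 were used. Sequences were not used here, and 1 list of related genes is not reported here.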

Additional observations from a re-analysis of the deposited data

How the results depend on the processing

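Alternatives were a pseudocount of 0.1 or 10 FPKM, no filter, a mean of at least 10 FPKM, values above 0 in both libraries, equal upper quartiles, equal medians, equal sums, and limits of 1.5-fold and 4-fold. Equal sums without OPRM1, PPARGC1A, TBX15 and CSPG5 were added after the data were seen. With equal sums 3 of the 10 genes were at least 2-fold higher and the median log2 ratio of the 10 genes was 0.071. Of all counted genes 18.6% were then at least 2-fold higher and 50.6% were lower. With a limit of 4-fold 3 of the 10 genes were higher and 1 was lower, beside 16.8% and 18.5% of all counted genes. Under the other settings 4 to 6 genes were higher and 2 to 4 were lower, and the median lay between 0.48 and 1.07. Of 89 ratios of single genes under these alternatives 76 stayed within 1.5-fold of the deposited value and 13 moved further. Of those 13, 10 came with equal sums and 3 with a pseudocount of 10 FPKM. That count is no measure of stability, since filters leave a ratio unchanged and a scaling shifts all ratios by about its own factor. The factor was 1.95 with equal sums but 1.06 to 1.47, under 1.5, with the other scalings. All 10 genes kept their sign under every scaling, while pseudocounts and filters cannot change a sign. With equal sums the median log2 ratios of the lists were 0.15 for the paralogs, 0.21 for the smooth-muscle apparatus, -1.23 for stress fibres and -0.97 for actin assembly. The median of all counted genes was then -1.03. On that scaling 11 genes each of stress fibres and actin assembly were lower, where 50.6% of all counted genes were lower too. The worth of 1 fragment per kb on loci of 300 to 1500 bp was 0.233 FPKM in estrus and 1.25 FPKM in diestrus. No paired analysis was possible because each stage has 1 library. The low values of ACTA1 in estrus, CNN1 in diestrus and CNN2 in both limit the precision of their ratios.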
